A study of Rattus norvegicus with 20 samples.

Results

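The baseline microRNA (miRNA) content of the adBNST, the anterodorsal division of the bed nucleus of the stria terminalis in the extended amygdala, was described in the 10 rats whose housing label is GH, of 20 rats in the series. These were 5 females and 5 males, told apart by the last letter of the animal name (F or M). For each library, the reads of every distinct sequence were summed to the miRNA that the deposited annotation gives it.

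All were Sprague-Dawley rats weaned on postnatal day 21, and the labels name no drug or engineered allele. GH rats then lived in groups of 3 same-sex littermates for 6 weeks, while the 10 SI rats (5 per sex) lived singly. Both were tested on the elevated plus maze at 9 weeks of age and killed a few hours later, so the GH libraries describe group-housed rats after a behavioral test, in a punch of mixed cell types. The labels do not say which GH rats shared a cage or litter, so p-values measure the spread between these rats only.

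The GH libraries held 3428930 to 8244720 miRNA reads (median 5207204) and were amplified over 22 PCR cycles from 215 ng of RNA each. Reads were found for 606 of the 617 miRNA names seen in the series, 388 names in every GH library and 46 in 1 GH library only. The 45 pairs of GH libraries all differed beyond counting error (chi-square over degrees of freedom of at least 78.5).

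A miRNA is cut from the stem of a hairpin precursor by the enzymes Drosha and Dicer, and either arm of the hairpin, named 5p or 3p, can be loaded into an Argonaute protein. The seed, bases 2 to 8, pairs with target mRNAs, so miRNAs that share a seed are grouped in a family. Variants of a miRNA that differ at the ends or by a base are called isomiRs, and a shift of the 5′ end moves the seed. Neurons of the adult brain are known for high levels of miR-9, miR-124, miR-128, and let-7.

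The miRNAs on which the description turns are shown here by family, as the reference sequence in the deposited reads (T stands for U), with the seed in capitals.
let-7c-5p: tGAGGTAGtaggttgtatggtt
let-7a-5p: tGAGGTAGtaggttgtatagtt
let-7f-5p: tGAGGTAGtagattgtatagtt
let-7d-5p: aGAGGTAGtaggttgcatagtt
miR-9a-5p: tCTTTGGTtatctagctgtatga
miR-9a-3p: aTAAAGCTagataaccgaaagt
miR-26a-5p: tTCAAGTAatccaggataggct
miR-7a-5p: tGGAAGACtagtgattttgttgt
miR-125a-5p: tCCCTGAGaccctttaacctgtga
miR-125b-5p: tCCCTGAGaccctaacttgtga
miR-128-3p: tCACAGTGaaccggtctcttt
miR-124-3p: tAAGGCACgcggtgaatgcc
miR-30d-5p: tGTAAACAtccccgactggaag
miR-30a-5p: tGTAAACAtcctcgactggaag
The let-7 members differ from each other by few bases outside the seed, so a read with a mismatch could be assigned to a neighbouring member, and single let-7 levels are less certain than their sum.

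A small number of miRNAs made up most of the GH adBNST libraries. By mean share, 11 miRNAs held 50% of the reads and 69 held 90%. Only 23 miRNAs were above 1%, and 255 were at or below 0.001%. The 20 most counted miRNAs held 66.2% together, and each of the 20 was among the first 30 in every GH rat.

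The most counted was miR-9a-5p, which acts in neural progenitors and neurons, at 7.65% ± 1.21 (SD, n = 10). Its share was 5.46%, 7.90%, 7.90%, 6.58%, and 7.74% in the females and 6.61%, 7.30%, 8.86%, 9.57%, and 8.54% in the males. It ranked first in 7 of the 10 rats, and let-7c-5p ranked first in the other 3 (G15F, G13F, and G16M). miR-26a-5p followed at 6.62% ± 0.79 and ranked 2 or 3 in every rat.

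let-7c-5p, of the family known for its rise during neuronal differentiation, took 6.25% ± 1.82, with a range of 3.93% to 9.51%. Its lowest share was in G16F and its highest in G15F, which also held the most reads of the females. let-7b-5p was the least even of the 20, with a coefficient of variation of 43.8% and a range of 1.22% to 4.25%, and let-7i-5p the most even, at 5.19%.

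miR-7a-5p, which is bound by the circular RNA Cdr1as in brain, took 5.11% ± 0.63. miR-128-3p, a neuronal miRNA, took 4.19% ± 0.82, and miR-124-3p, a marker of neurons, 2.30% ± 0.54. miR-125a-5p took 3.76% ± 0.78 and miR-125b-5p 2.62% ± 0.26. miR-143-3p, known from smooth muscle of vessels, closed the 20 at 1.41% ± 0.38. Shares are not molecule numbers, because ligation and PCR favour some sequences over others.

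**Figure D1:**
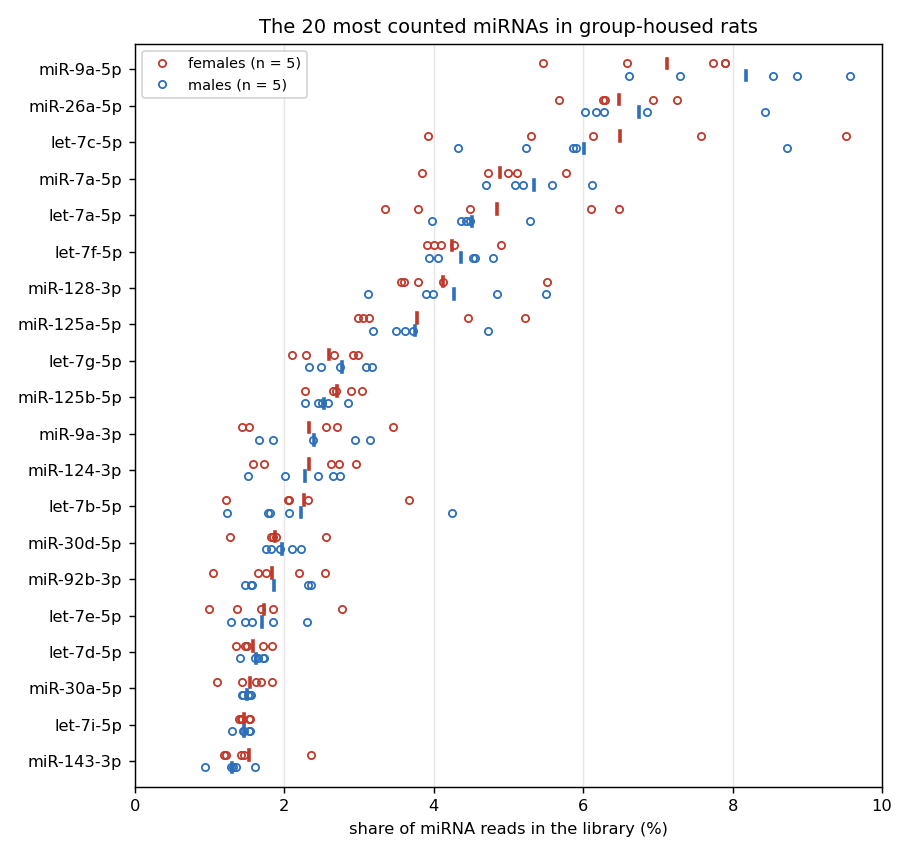
Share of miRNA reads (x axis, %) of the 20 most counted miRNAs in each GH rat; open circles are rats (red, 5 females; blue, 5 males) and vertical bars are group means. miR-9a-5p leads at a mean of 7.65%, and the females and males overlap for each of the 20.

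Summed by seed, the let-7/miR-98 family stood first with 25.7% ± 4.04 of the reads, more than 3 times the next family. Its share was 33.1%, 25.1%, 19.9%, 29.1%, and 22.4% in the females and 30.4%, 24.6%, 24.9%, 22.4%, and 24.7% in the males. G15F, G16M, and G13F were the highest and G16F the lowest, so the females enclosed the range of the males. Within the 9 names of the family, let-7c-5p gave 24.3%, let-7a-5p 18.2%, let-7f-5p 16.8%, and let-7g-5p 10.4%, while miR-98-5p gave 2.96%.

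The next families were miR-9a-5p (7.66%), miR-26 (6.92%), miR-125 (6.44%), miR-7 (6.08%), miR-30 (4.66%), and miR-128-3p (4.20%). miR-9a-3p (2.37%), miR-124-3p (2.31%), and miR-99/100 (2.29%) completed the 10, which held 68.6% of the reads. The first 5 families already held 50%. The miR-26 family was nearly all miR-26a-5p (95.8%), whereas the miR-30 family was shared between miR-30d-5p (41.3%), miR-30a-5p (32.6%), miR-30c-5p (13.8%), and 3 smaller names.

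**Figure D2:**
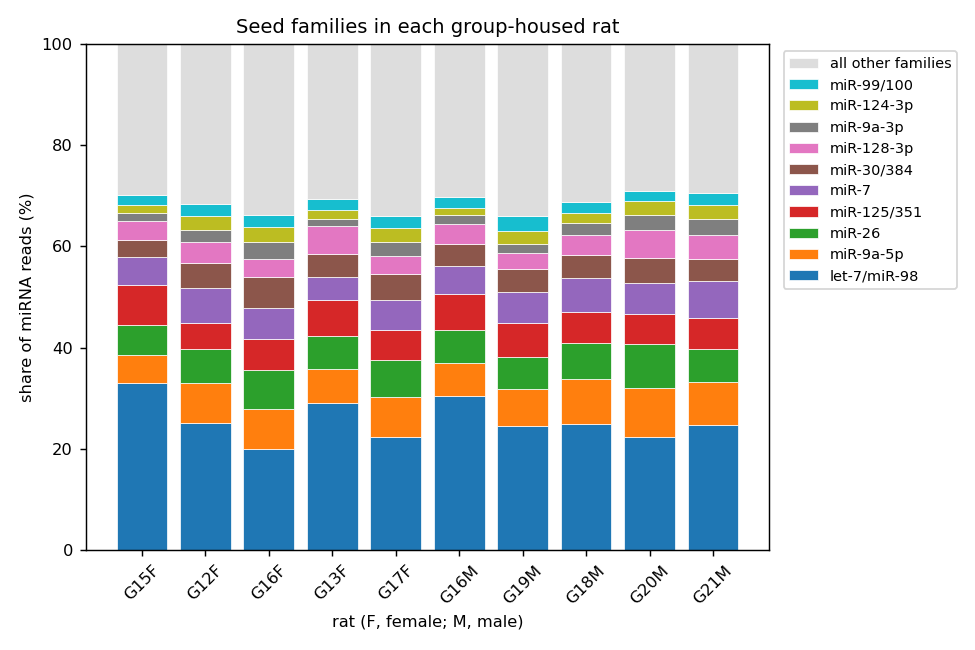
Share of miRNA reads (y axis, %) of the 10 largest seed families in each GH rat (x axis), stacked, with all other families in grey. The let-7/miR-98 block ranges from 19.9% in G16F to 33.1% in G15F.

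Marker miRNAs placed the punches as brain tissue rich in neuronal miRNAs. The 12 names of the neuronal list, which include miR-9a, miR-124-3p, miR-128-3p, miR-7a-5p, miR-132-3p, and miR-129-5p, all had reads and summed to 24.7% ± 2.99. Within the list, miR-132-3p, which responds to neuronal activity, took 0.664% ± 0.104 and miR-129-5p 1.14% ± 0.257. miR-137-3p and miR-138-5p took 0.0210% and 0.0182%.

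The 4 oligodendrocyte names summed to 0.526% ± 0.139, most of it from miR-219a-2-3p (0.377%) and miR-338-5p (0.136%). The 6 names of microglia and myeloid cells summed to 0.0859% ± 0.0252, of which miR-150-5p gave 0.0732%. The defining myeloid miR-223-3p was at 0 to 53 reads and miR-142-3p at 0 to 49.

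The endothelial and mural list (5 names) summed to 1.57% ± 0.420, of which miR-143-3p gave 1.41% and miR-126a-3p 0.125%. It was 1.34% to 1.59% in 4 of the females, 2.66% in G16F, and 1.06% to 1.74% in the males. In bulk tissue, fewer cells of a type and less RNA per cell cannot be told apart.

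The choroid plexus and ependyma list (12 names) summed to 0.978% in G17F and to 0.145% to 0.398% in the other 9 rats. Its mean over GH rats was 0.342%, and 0.271% without G17F. miR-204-5p, the most abundant choroid plexus miRNA, was at 0.655% in G17F and as low as 0.0844% elsewhere, whereas the epithelial miR-200a-3p, miR-141-3p, and miR-429 were at 0 reads in 7, 9, and 8 of the 10 libraries. The adBNST borders the lateral ventricle, and the part of ventricular tissue in the G17F values was not tested.

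The erythroid list (4 names) summed to 0.121% ± 0.0154, and miR-486 gave 0.120% of it, while miR-451-5p stayed at 0 to 107 reads. In the other-organs list, 9 of 10 names had reads, with a sum of 0.372% ± 0.0779. The endocrine miR-375-3p gave 0.346% of it. The liver miR-122-5p was at 0 to 74 reads, and the cardiac miR-208a-3p had no read.

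In SI rats the mean sums of these lists, which were not tested between housings, were 22.8% (neuronal), 0.620% (oligodendrocyte), 0.0756% (microglia and myeloid), 0.714% (endothelial and mural), 0.200% (erythroid), 0.409% (choroid plexus and ependyma), and 0.359% (other organs). The GH mean was higher for the endothelial and mural list and lower for the erythroid list. The part of these lists in the differences between GH and SI rats was not tested.

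The imprinted miRNA cluster of chromosome 6, expressed from the maternal allele and prominent in neurons, was well represented. Its 80 names all had reads and summed to 9.07% ± 0.685, from 8.34% to 10.1% in the males and 8.40% to 9.69% in the females. miR-434-3p led with 1.29% ± 0.144, before miR-487b-3p (0.788%), miR-433-3p (0.736%), miR-127-3p (0.732%), and miR-379-5p (0.664%). On chromosome X, 83 of 85 names had reads and summed to 2.35% ± 0.142, led by miR-98-5p (0.759%), miR-222-3p (0.312%), and miR-221-3p (0.182%).

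Arm use was strongly one-sided for most hairpins. Of all reads of names with an arm, 70.4% ± 1.63 (SD, n = 10) were 5p. Among 142 hairpins with both arms annotated and at least 100 reads in every library of the series, 68 had more 5p than 3p reads and 74 the opposite. The mean 5p share was above 99% in 28 hairpins and under 1% in 27, and 44 lay between 10% and 90%. The major arm was the same in all 10 rats for 131 hairpins.

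miR-26a (99.99%), miR-30d (99.99%), let-7g (99.99%), let-7e (99.7%), miR-125a (99.4%), and let-7b (99.1%) came from the 5p arm nearly alone. miR-124 (0.143% 5p) and miR-92b (0.957%) came from the 3p arm. miR-9a stood apart among the abundant hairpins, with both arms in use at 76.8% ± 3.69 5p, from 69.6% in G16F to 81.1% in G13F. let-7d was at 87.5% ± 4.52, and its lowest value, 79.5%, was in G16M.

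The 5 hairpins nearest to equal use were miR-376a (49.1% ± 11.8 5p), miR-28 (51.4% ± 8.79), miR-423 (46.2% ± 4.65), miR-666 (45.9% ± 9.60), and miR-653 (54.2% ± 8.87). The rats disagreed on the major arm of each. For miR-376a the 5p share was 44.0%, 40.5%, 64.1%, 32.6%, and 58.8% in the females and 34.6%, 54.7%, 44.5%, 50.9%, and 66.3% in the males, so either arm led in rats of both sexes. The other hairpins whose major arm differed between rats were miR-151, miR-340, miR-325, miR-324, miR-374, and miR-582. For miR-582 the 5p arm led in G15F alone (54.1%, against 3.66% to 31.5% in the other rats), and its minor arm had as few as 23 reads. Among the 44 hairpins between 10% and 90%, the median SD of the 5p share was 5.94 percentage points.

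**Figure D3:**
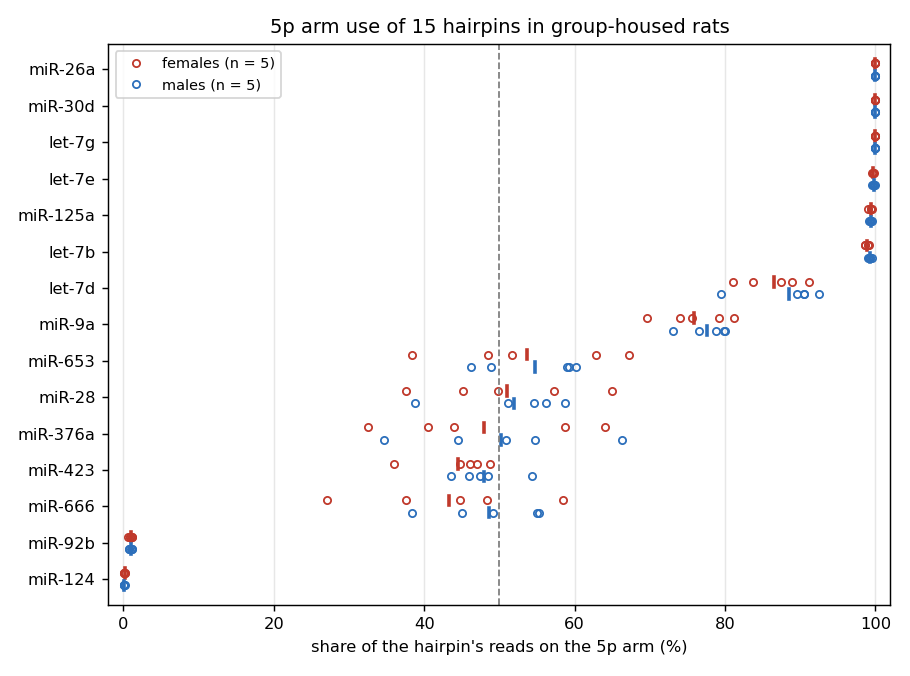
Share of each hairpin's reads on the 5p arm (x axis, %) in the 10 GH rats, for the 10 hairpins with the most reads and the 5 nearest to 50% (dashed line); circles are rats (red, females; blue, males) and bars are means of 5. Hairpins such as miR-26a and miR-124 sit at the edges, and miR-376a spans 32.6% to 66.3%.

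Less than 50% of the GH reads equalled the reference miRNA sequence. The reference share was 45.4% ± 0.929 of reads (43.7% to 46.7% over the 10 rats). A shortened 3′ end was found in 29.4% ± 1.07, a 3′ end lengthened by hairpin bases in 14.3% ± 0.459, and bases added to the 3′ end that do not match the hairpin in 15.2% ± 0.732. A changed 5′ end was found in 5.98% ± 0.620 and a mismatched base in 2.30% ± 0.107, and a read can be in several of these classes. These figures weight abundant miRNAs most. When each of 132 well-counted miRNAs counted equally, the reference share was 36.5% and the lengthened share 22.0%. Reads of 22 bases made up 45.4%, those of 21 bases 18.9%, and those of 23 bases 18.2%.

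Among reads with an added end, a single A (36.5% ± 0.774) and a single U (35.1% ± 1.81) were about as common, followed by AA (7.74%), AU (5.201%), and UU (2.84%). Terminal uridyl and adenylyl transferases are known to add such bases. An added base is one that the aligned hairpin lacks, and 7.04% of reads with an added end lay in full inside a RefSeq (GRCr8) hairpin. This share reached 73.7% for miR-92a-3p, 87.8% for miR-27a-3p, and 59.0% for miR-128-3p, whose added ends therefore cannot be told apart from encoded bases. It was 0% for miR-143-3p, miR-652-3p, and miR-148b-3p, in which an added U was found in 59.2% ± 1.90, 60.5% ± 2.82, and 45.7% ± 3.77 of reads. Added A was highest in miR-134-5p (46.9% ± 2.02) and miR-99b-3p (38.1% ± 5.83).

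Among miRNAs with at least 1000 reads in every GH library, the reference was the most counted form in 88 and another form in 66. Of the 20 most counted miRNAs, another form led in 6. These leading forms are shown because a probe for the reference would differ from the RNA most often read, and capitals mark bases that the reference lacks.
miR-7a-5p: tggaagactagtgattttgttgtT
miR-125a-5p: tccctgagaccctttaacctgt
miR-124-3p: taaggcacgcggtgaatgc
miR-30d-5p: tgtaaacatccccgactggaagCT
miR-30a-5p: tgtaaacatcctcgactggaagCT
miR-143-3p: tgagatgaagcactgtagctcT
The miR-7a-5p form took 43.5% ± 1.86 of its reads, against 41.7% ± 1.37 for the reference. The longer forms of miR-30d-5p and miR-30a-5p took 56.3% ± 3.15 and 63.6% ± 3.46, and the shorter form of miR-125a-5p 56.1% ± 1.86. For miR-143-3p, 50.3% ± 1.45 of reads had lost the last base and gained a U.

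In miR-124-3p the reference of 20 bases was only 3.34% ± 0.856 of reads, and the form without the last base was 42.3% ± 1.39. A form that also starts 1 base earlier took 28.9% ± 2.20, which moves the seed by 1 position.
miR-124-3p, 5′ end moved: Ttaaggcacgcggtgaatgc
In all, 43.4% ± 2.18 of miR-124-3p reads had a changed 5′ end. miR-9a-3p was next among the 20 with 33.8% ± 1.63, mostly by loss of its first A (leading forms 15.5% and 10.1% of reads), and miR-9a-5p followed at 7.15% ± 0.65. The remaining 17 lay between 1.02% and 2.15%.

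Outside the 20, a changed 5′ end was found in 88.8% ± 2.65 of miR-505-3p reads, 74.0% ± 4.11 of miR-330-3p, 71.0% ± 2.41 of miR-409a-3p, 64.2% ± 3.15 of miR-136-3p, and 63.0% ± 4.14 of miR-101a-3p. The median over the miRNAs with at least 1000 reads in every GH library was 2.44%. At the other end, the reference was 93.4% ± 1.43 of miR-380-3p reads and 85.7% ± 2.43 of miR-34c-5p.

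**Figure D4:**
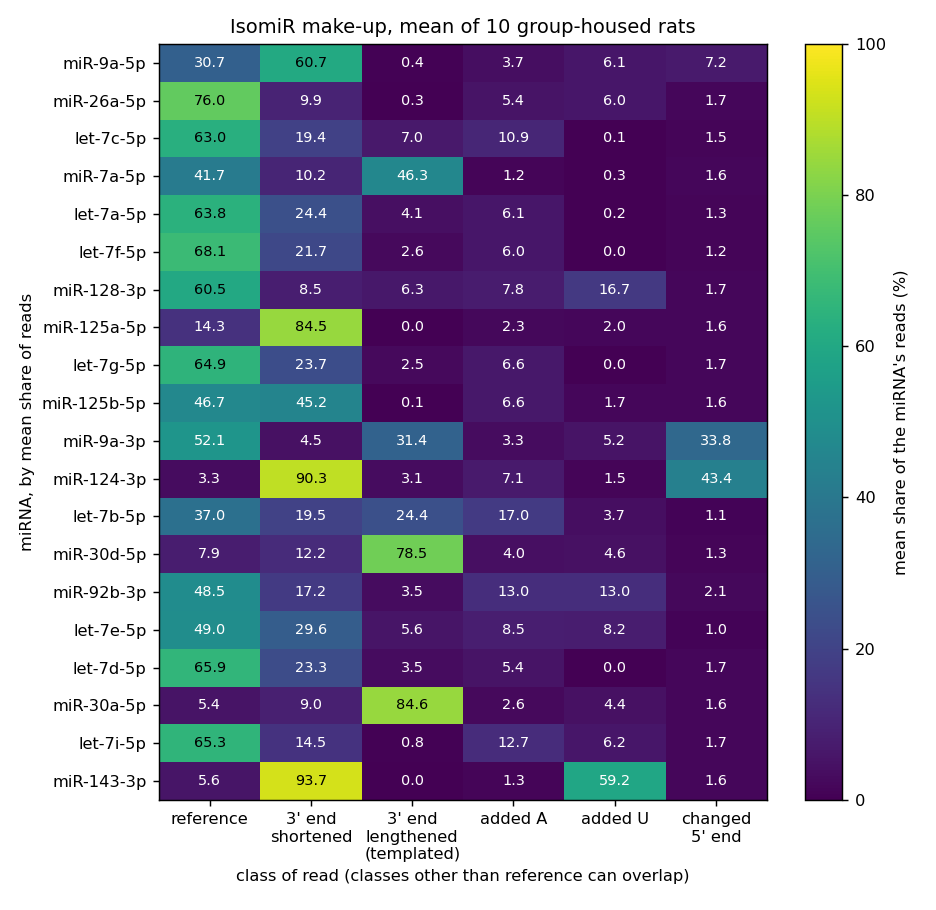
Mean share (%, color and number, n = 10 GH rats) of each miRNA's reads that equal the reference, have a shortened or lengthened 3′ end, carry only added A or only added U, or have a changed 5′ end, for the 20 most counted miRNAs. miR-143-3p stands out for added U (59.2%), miR-30a-5p for a lengthened 3′ end (84.6%), and miR-124-3p for a changed 5′ end (43.4%).

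The most common kind of mismatch was A read as G. Of the reads with a mismatch, 38.9% ± 1.66 had A in the reference and G in the read, 24.8% ± 0.897 T to C, 9.69% G to A, and 8.33% C to T, and each other kind was under 5%. Deamination of adenosine to inosine by ADAR enzymes, which is read as G, is known in brain miRNAs. Genomic DNA of these rats was not analysed here, so an edited base and a base that differs in the genome cannot be told apart.

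Among all miRNAs with at least 1000 reads in every GH library (the 88 and the 66 above), 13 positions in 12 miRNAs carried a mismatch in at least 2% of reads with the reference 5′ end, and 12 of the 13 were A to G. Positions are counted from 1 at the 5′ end of the miRNA, and the reference base comes first. The sites were miR-376b-3p A6G (67.6% ± 3.91), miR-3099 A7G (54.0% ± 2.34), miR-344b-1-3p A7G (41.3% ± 9.65), miR-411-5p A5G (26.6% ± 4.41), and miR-488-3p A5G (17.8% ± 2.75). miR-151-3p A3G (9.89%), miR-378a-3p A16G (6.86%) and A6G (2.38%), miR-379-5p A5G (5.47%), and miR-99a-5p A1G (3.96%) were lower. miR-708-3p A6G (3.70%), miR-99b-3p A3G (3.05%), and miR-351-5p A25T (2.53%) were the others. A25T is the last base of the miR-351-5p reference, so it reads the same as a lost A with an added U.

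All of these A to G sites except miR-378a-3p A16G and miR-99a-5p A1G lie in the seed. The first 5 are shown as reference and as read, with the base in question in capitals.
miR-376b-3p, reference: atcatAgaggaacatccactt
miR-376b-3p, read: atcatGgaggaacatccactt
miR-3099, reference: taggctAgaaagaggttgggga
miR-3099, read: taggctGgaaagaggttgggga
miR-344b-1-3p, reference: gatataAccaaagcccgactgt
miR-344b-1-3p, read: gatataGccaaagcccgactgt
miR-411-5p, reference: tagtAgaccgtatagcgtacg
miR-411-5p, read: tagtGgaccgtatagcgtacg
miR-488-3p, reference: ttgaAaggctgtttcttggtc
miR-488-3p, read: ttgaGaggctgtttcttggtc
None of the reads at these sites lay in another RefSeq hairpin (0%). miR-376b-3p, miR-411-5p, and miR-379-5p belong to the chromosome 6 cluster. For miR-376b-3p the G form was the major form in every rat, from 63.1% to 76.7%. For miR-344b-1-3p, G15F stood at 67.1% and the other 9 rats at 33.7% to 45.4%.

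At miR-488-3p A5G the females had 13.8%, 17.4%, 14.7%, 15.97%, and 14.8% and the males 20.4%, 21.0%, 19.9%, 20.3%, and 19.5%. Every female was below every male, with means of 15.3% ± 1.39 and 20.2% ± 0.535 (two-sided exact permutation test, p = 0.0079, the smallest that 5 against 5 rats allow). Over the 13 sites, which were picked with the data in view, the Benjamini-Hochberg adjusted p of this permutation test was 0.10. In SI rats the means were 24.4% ± 12.03 in females and 23.4% ± 5.47 in males, and the ranges overlapped (exact permutation p = 0.88, n = 5 per sex). These SI values depend on the sex given to 2 SI libraries, whose labels and file names differ. Of the other 12 sites, miR-151-3p A3G (9.17% in females, 10.6% in males) and miR-378a-3p A6G (1.80% and 2.97%) had exact permutation p-values of 0.040 and 0.032, both 0.17 after adjustment.

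**Figure D5:**
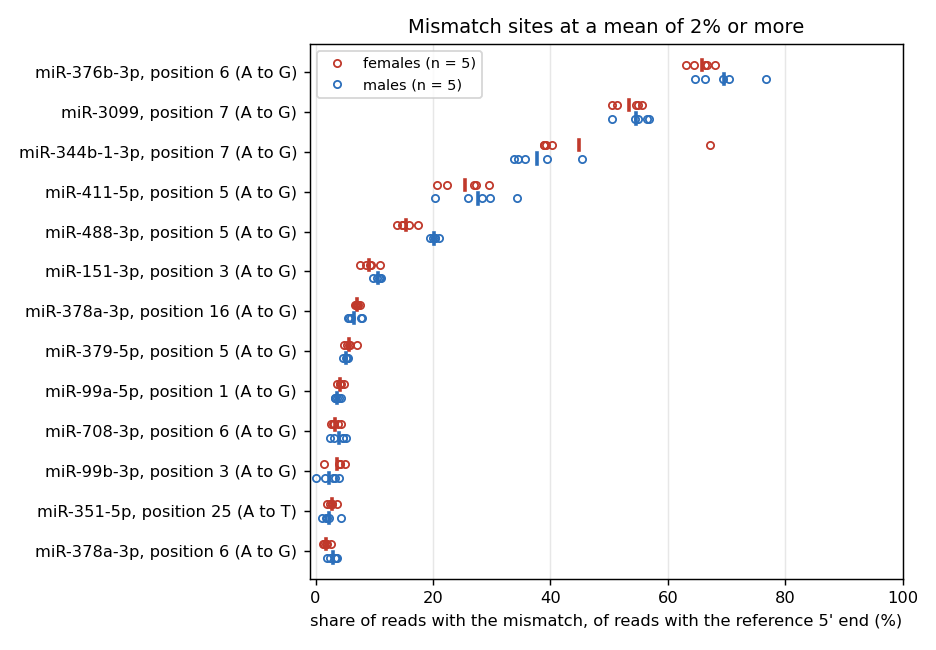
Share of reads with the mismatch among reads with the reference 5′ end (x axis, %) at the 13 sites with a mean of at least 2% in GH rats; circles are rats (red, females; blue, males) and bars are means of 5. miR-376b-3p lies above 60% in every rat, and the females lie below the males at miR-488-3p.

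The profiles of GH rats were close to each other. Over 225 miRNAs with a mean of at least 100 CPM (read counts scaled to a common library size), the SD of log2 CPM between the 10 rats ranged from 0.12 to 1.06, with a median of 0.35. Pearson's r between the log2 CPM of these miRNAs in 2 rats was 0.925 to 0.993 over the 45 pairs, with a median of 0.980 within a sex and 0.973 between the sexes. It is a correlation across miRNAs, which are not independent.

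The evenest were miR-125b-5p (SD 0.12), miR-27b-3p (0.14), miR-23b-3p (0.15), miR-191a-5p (0.15), and miR-146b-5p (0.15), all under 0.2. miR-1298 varied the most, with log2 CPM values of 8.40, 7.98, 8.26, 9.43, and 10.99 in the females and 8.31, 9.70, 8.04, 8.34, and 7.36 in the males. The highest value was in G17F, the rat with the highest choroid plexus and ependyma list. miR-153-3p, miR-204-5p, and the miR-34b/c names miR-34c-3p and miR-34b-3p, known from ciliated cells, also had an SD above 0.68 and their highest value in G17F. Of these, miR-204-5p, miR-34c-3p, and miR-34b-3p belong to the choroid plexus and ependyma list, so their peak is not separate from that of the list. miR-338-3p, miR-136-5p, and miR-21-5p were highest in G16F, the rat with the highest endothelial and mural list. G16F also had the highest sum of the oligodendrocyte list (0.784%), to which miR-338-3p belongs. miR-702-3p was highest in G15F and miR-1247-5p in G13F.

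The SD was higher in the females than in the males for 182 of the 225 miRNAs, with medians of 0.39 and 0.26. According to the paper, the sequenced females were picked for high RNA integrity and to cover a range of estradiol levels. The part of that choice in the female spread was not tested. As a value per rat, the median over the 500 tested miRNAs of the absolute difference in log2 CPM from the mean of the other GH rats of its sex was 0.574, 0.373, 0.575, 0.499, and 0.516 in the females and 0.431, 0.447, 0.324, 0.397, and 0.337 in the males. The ranges overlapped, and the means were 0.507 and 0.387 (exact permutation p = 0.040, adjusted p = 0.28 over the 14 composition measures, exact permutation tests).

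The comparison of GH females with GH males asked whether the baseline differs by sex. No feature passed an adjusted p of 0.05 in edgeR or limma. DESeq2, run as an alternative on counts and without the minimum count set for edgeR, called a few. With edgeR's quasi-likelihood test, 0 of 500 miRNAs passed (0% called), and 12 had an unadjusted p under 0.05. DESeq2 called 5 of 586, and edgeR without a minimum count called 0 of 617. The median log2 fold change of females against males was 0.02, with 260 miRNAs higher and 240 lower in females, and the median standard error was 0.43.

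The 12 names with an unadjusted p under 0.05 are given here, of which the last 7 were named after their values were seen. miR-3084a-3p, miR-3084b-3p, and miR-3084d came first, 3 names that share the same reads (56 to 125 in females, 139 to 313 in males) and therefore count as 1 observation. Their log2 CPM was 3.48 to 3.98 in females and 4.56 to 5.84 in males, without overlap. The log2 fold change was -1.41 (SE 0.40), with an adjusted p of 0.286 in edgeR and 0.0128 in DESeq2. They were followed by miR-30b-5p, a minor member of the miR-30 family. Its log2 CPM was 7.58, 7.63, 8.87, 7.54, and 8.33 in the females and 7.55, 7.12, 6.95, 7.46, and 7.496 in the males. The groups overlapped at their edge, and the log2 fold change was 0.76 (SE 0.27, edgeR adjusted p = 0.996).

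miR-34a-5p, a target of p53, differed by 0.84 (SE 0.31), miR-374-5p by 0.72 (SE 0.27), and miR-199a-3p, known from mesenchymal cells, by 0.85 (SE 0.33), each with a higher mean in females. The others were miR-183-5p (-1.51), miR-153-3p (1.10), miR-144-3p (4.44, at 0 to 63 reads), miR-409a-3p (-0.37), and let-7b-3p (0.56). The edgeR adjusted p was 0.996 for each of these, and their ranges in females and males overlapped. The 2 further calls of DESeq2, named because they were called, rest on few reads. miR-3065-3p had 26 reads in 3 females and none in males, and miR-511-3p 35 reads in 2 females and none in males.

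None of the 20 most counted miRNAs passed or had an unadjusted p under 0.05. The lowest p was that of miR-9a-5p, which was lower in females by 0.27 on the log2 scale (SE 0.20, unadjusted p = 0.19, edgeR), and let-7b-5p had a log2 fold change of -0.01 (SE 0.36). Of the chromosome X names, 53 were tested with edgeR, 32 were higher and 21 lower in females, 0 passed, and miR-374-5p alone had an unadjusted p under 0.05. Their median log2 fold change was 0.13, against 0.02 over all 500 miRNAs. Of the chromosome 6 cluster, 72 names were tested with edgeR, 25 higher and 47 lower in females, with a median of -0.09 and 0 calls, miR-409a-3p alone having an unadjusted p under 0.05. In the cell type lists 0 names were called, and the median log2 fold changes were -0.10 (neuronal), 0.31 (oligodendrocyte), 0.35 (microglia and myeloid), 0.21 (endothelial and mural), 0.63 (erythroid), 0.65 (choroid plexus and ependyma), and 0.04 (other organs). Higher in females were 4 of 4 oligodendrocyte, 6 of 6 microglia and myeloid, and 5 of 5 endothelial and mural names. So were 7 of 9 choroid plexus and ependyma, 5 of 9 other-organs, 3 of 12 neuronal, and 2 of 4 erythroid names. These directions were not tested as a set. The summed shares of the erythroid list overlapped, at 0.0958% to 0.144% in females and 0.105% to 0.140% in males.

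By seed family, edgeR called 0 of 408 families (0% called), 8 had an unadjusted p under 0.05, and DESeq2 called 3 of 482. The families of miR-374-5p (log2 fold change 0.73, SE 0.26), miR-199a-3p (0.85, SE 0.35), miR-409a-3p (-0.38, SE 0.17), and miR-183-5p (-1.49, SE 0.65) followed that of miR-3084 by p. The let-7/miR-98 family had a log2 fold change of -0.02 (SE 0.22).

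By isomiR, edgeR called 0 of 10290 forms (0% called), 171 had an unadjusted p under 0.05, and DESeq2 called 23 of 62741. The lowest p was that of miR-770-3p with its 3′ end lengthened by CU, at 14.9 to 25.9 CPM in females and 29.6 to 44.0 in males (log2 fold change -1.03, SE 0.24, edgeR adjusted p = 1). A form of let-7b-3p with an added U and the last base lost was at 125 to 204 CPM in females and 87.7 to 132 in males. A form of miR-34b-3p that starts with an additional C (3.50 to 6.47 CPM in females, absent from the males' counts), a T to C form of miR-149-5p, and a shortened miR-6324 were the next, all at or under 16.9 CPM.

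For arm use, limma called 0 of 142 hairpins (0% called), with 4 at an unadjusted p under 0.05. These were miR-1839 (98.4% 5p in females, 99.7% in males), miR-101a (0.0485% and 0.00854%), let-7g (99.97% to 99.99% and 99.99% to 100%), and miR-1188 (98.7% and 100%). miR-9a was at 69.6% to 81.1% 5p in females and 73.1% to 80.0% in males.

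For the share of reference reads per miRNA, limma called 0 of 232 (0% called) and 7 had an unadjusted p under 0.05. let-7f-5p was lowest by p, with reference shares of 65.6%, 67.8%, 67.8%, 68.2%, and 67.8% in females and 69.3%, 68.8%, 68.8%, 68.9%, and 68.3% in males. The groups did not overlap, but the difference of means was from 68.8% to 67.4%, with a limma adjusted p of 0.999. miR-107-3p, which shares most of its sequence with miR-103-3p and is therefore uncertain, was at 8.75% to 11.9% in females and 1.13% to 8.71% in males. miR-582-3p (33.6% to 75.7% and 13.97% to 34.8%), miR-124-3p (3.23% to 5.28% and 2.22% to 3.28%), and miR-541-5p (43.0% to 45.2% and 39.1% to 43.8%) overlapped.

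Of the 14 measures of composition, 0 passed an adjusted p of 0.05 by exact permutation. The smallest exact permutation p, 0.0079, gives an adjusted p of 0.11 when 1 measure alone reaches it. A measure could therefore not pass alone, however large its difference. The share of reads with a mismatch was the measure in which the sexes did not overlap. The lowest female and the highest male were separated by under 0.01 percentage points. By read, the mismatch share was 2.51%, 2.45%, 2.30%, 2.28%, and 2.36% in females and 2.28%, 2.26%, 2.17%, 2.19%, and 2.23% in males (means 2.38% and 2.23%, exact permutation p = 0.0079, adjusted p = 0.11). When each of 132 miRNAs counted once, the sexes overlapped, at 2.61% to 2.76% in females and 2.46% to 2.68% in males. The let-7 family share (25.9% ± 5.27 in females, 25.4% ± 2.97 in males), the 5p share (70.1% ± 1.998 and 70.7% ± 1.33), and the reference share (45.2% ± 1.19 and 45.6% ± 0.685) overlapped.

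Set against the SI rats, the GH libraries were spread over more miRNAs. The effective number of miRNAs, 2 to the power of the Shannon entropy in bits, was 59.99 ± 4.40 in GH and 52.2 ± 5.29 in SI rats (n = 10 each, permutation test, adjusted p = 0.0084), and the 10 leading miRNAs of each rat held 48.4% ± 2.64 against 52.6% ± 2.96 (adjusted p = 0.011, permutation test). The let-7 family was lower in GH rats, at 25.7% ± 4.04 against 32.1% ± 7.34 (adjusted p = 0.033, permutation test), and the ranges overlapped for each of these measures. A changed 5′ end was more frequent (5.98% against 5.202%, adjusted p = 0.033, permutation test), as was a lengthened 3′ end (14.3% against 13.1%, adjusted p = 0.026, permutation test). The SI rat I16F had an effective number of 39.3 and a let-7 share of 48.8%. The other SI rats had 50.1 to 59.3 and 21.8% to 36.6%. Its 10 leading miRNAs held 59.4%, against 48.2% to 54.5% in the other SI rats. The GH against SI tests were not run without I16F.

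At the depth of the shallowest library, 490 miRNAs were expected per GH library against 440 per SI library (adjusted p = 0.011, permutation test), and GH rats lay closer to their group (0.447 against 0.640 on the log2 scale, adjusted p = 0.026, permutation test). I16F was at 367 miRNAs and a distance of 1.23, against 405 to 478 and 0.434 to 0.832 in the other SI rats. The isomiR differences given above are by read. When each of 132 miRNAs counted once, the difference of GH from SI rats was 0.16 percentage points for a changed 5′ end (adjusted p = 0.13, permutation test) and 0.03 for a lengthened 3′ end (adjusted p = 0.96, permutation test). The reference share was lower in GH rats by read (45.4% against 47.0%, adjusted p = 0.011, permutation test) and higher when each miRNA counted once (difference 0.65 percentage points, adjusted p = 0.010, permutation test). The other 6 measures did not pass, among them the 5p share (70.4% against 72.5%, adjusted p = 0.054, permutation test) and the mismatch share (2.30% against 2.25%, adjusted p = 0.35, permutation test). The 8 measures that passed in all 20 rats did not pass within males or within females alone (5 against 5).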

How the data were processed

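Small RNA libraries came from the adBNST of 20 rats, of which the 10 GH rats are described. The authors trimmed adapters, used seqbuster to align reads to the rat hairpins in miRBase 21, and deposited the count of each distinct sequence, at 2 or more reads and without normalization, so rarer forms are missing and a listed 0 sets no limit. Reads of several miRNAs were counted for each (at most 0.267% of a GH library). Counts were summed to miRNAs, seed families, and isomiRs, and a feature was tested where 5 or more of the 20 libraries reached 10 counts. The model had 4 groups (edgeR 4.0.16, TMM, quasi-likelihood). DESeq2 1.42.0 was the alternative and was run without that minimum, so its counts of calls differ from those of edgeR in filter as well as tool. Log2 ratios of arms and of reference reads, with 0.5 counts added and at least 100 reads in every library, were tested with limma 3.58.1. Benjamini-Hochberg adjustment ran over every feature of a test or over the 14 measures. Other tests were two-sided permutation tests in scipy 1.17.1, exact for 5 against 5 rats (252 assignments) and with 100000 permutations for GH against SI. The fits were tested on simulated data. Intervals of counting error do not cover PCR, since reads carry no molecular identifiers here.

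The named miRNAs are the 20 most counted, the 10 largest families, the 10 hairpins with the most reads and the 5 nearest to equal arm use, the 5 evenest and 10 least even miRNAs, all listed markers, and the 5 with the lowest p of each test (for miRNAs, all with an unadjusted p under 0.05). Members, lists, and tests were chosen with earlier results of these data known. Reference sequences were taken from the deposited reads, and RefSeq (GRCr8) gave chromosomes by name for 559 names and the hairpins, and its 456 of 457 shared references equalled the deposited ones. Of the animal numbers, GH and SI rats of the same sex share 5, and the correlation of deviations from the group means ran from -0.65 to 0.27 over these pairs, with 2 of 5 above 0.1, so the numbers were not taken to pair the rats. In 2 SI libraries the sex in the file name is not that of the label, which was followed.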

Additional observations from a re-analysis of the deposited data

Results flagged for a closer look

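Among the groups of 5 GH rats of a sex that were examined (77 items in each sex, made of 14 composition measures, 20 miRNAs, 6 families, 15 hairpins, 9 lists, and 13 mismatch sites), 8 held a rat that stood apart from the other 4. That is 5.19% of the groups, and chance, which flags about 1 in 20, would give 7.7, so the number itself is not above chance. G16F had 2.66% of reads from the endothelial and mural list, against 1.34% to 1.59% in the other females, and its miR-143-3p share was 2.35%, against 1.19% to 1.46%. G17F had 0.978% from the choroid plexus and ependyma list, against 0.223% to 0.390%. G16M had a let-7b-5p share of 4.25%, against 1.23% to 2.06% in the other males, and 79.5% of its let-7d reads were 5p, against 89.6% to 92.6%. G13F had a miR-128-3p share of 5.52%, against 3.56% to 4.12%. G15F had 67.1% at miR-344b-1-3p A7G, against 38.8% to 40.3%, and 1.44% at miR-99b-3p A3G, against 3.94% to 4.93%.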

How the results depend on the processing

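No feature passed between GH females and GH males in edgeR or limma with another normalization, filter, added count, or set of samples or reads, nor without any 1 rat (0 to 0 calls for miRNAs, families, isomiRs, arm ratios, reference shares, and composition measures). The composition measures were tested by exact permutation, in which 1 measure alone could not pass with so few rats. For miRNAs, the lowest edgeR adjusted p was 0.286 in the main fit and 0.062 with the GH rats alone. It was 0.065 with at least 10 counts in every library. With the GH rats alone, 29 of 471 miRNAs had an unadjusted edgeR p under 0.05, against 12 of 500 in the main fit. DESeq2 called 5 miRNAs, 3 families, and 23 isomiRs and, with the GH rats alone, a setting added after the data had been seen, 4 miRNAs and 2 families; the cause was not tested. Those 4 were the miR-3084 names and miR-31a-5p (301, 266, 149, 463, and 360 reads in males and 949, 509, 951, 312, and 734 in females).

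Of the 8 measures that passed between GH and SI rats, 0 passed in males and 0 in females. Within a sex, 1 measure alone could not pass by exact permutation. With the replicate block of 5 same-numbered pairs 0 passed, and its smallest possible exact p is 0.0625. When each miRNA counted once, 1 of 8 isomiR measures passed, the reference share, with the opposite sign (0.65 percentage points). The sign also turned for the shortened 3′ end (0.59 by read, -0.77 by miRNA), the mismatch share (0.06 and -0.01), and added U (0.25 and -0.01), which did not pass in either. The cause was not tested. The median SD between GH rats was 0.35, 0.21 with DESeq2's regularized log2, 0.30 at 1000 CPM or more, and 0.33 to 0.37 without any 1 rat. Without any 1 rat, the difference of females from males at miR-488-3p A5G was -5.38 to -4.48 percentage points. No paired analysis was possible because the GH females and GH males share 1 animal number.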
